A study of Homo sapiens with 18 samples.

Results

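BxPC3 and SUIT2, 2 human pancreatic ductal adenocarcinoma lines, were compared as they stood after 6 h with the vehicle dimethyl sulfoxide (DMSO). The comparison took the 3 BxPC3 and 3 SUIT2 libraries labelled DMSO, 6 of the 18 libraries of the study, and all 26485 gene symbols of the count tables, of which 14011 had enough counts to be tested. The study asked how 3 pancreatic cancer lines, BxPC3, Panc327 and SUIT2, respond to 100 nM THZ1, a covalent inhibitor of the transcription kinase CDK7, given for 6 h. The 3 DMSO libraries of Panc327 and the 6 THZ1 libraries of BxPC3 and SUIT2 served as points of reference. Each line is a single tumour-derived line, so a difference between them is a difference between 2 tumours' cells in culture, and the labels do not say whether the 3 libraries of a line came from separate cultures. The p-values therefore measure only the spread between libraries of the same group, estimated over all 18 libraries. That spread may be technical.

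Ductal adenocarcinomas of the pancreas are commonly described along an axis from a classical state, marked by gut and pancreatic transcription factors such as GATA6 and HNF4A and by gastrointestinal secretory genes, to a basal-like or squamous state, marked by TP63, keratins of stratified epithelia and laminins of the basement membrane. Mesenchymal genes such as VIM, and loss of the adherens junction cadherin CDH1, mark another departure from the ductal epithelium. Tumour suppressors of this cancer, CDKN2A and SMAD4 among them, are often lost by deletion, together with neighbouring genes.

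The 6 libraries were alike in depth. They held 7341873 to 8263032 counts on genes, with a mean of 8037100 ± 363240 in BxPC3 and 7642330 ± 476480 in SUIT2 (SD, n = 3; exact two-sided permutation p = 0.2, where the smallest p that 3 against 3 allows is 0.1). The share of alignments placed in no gene was 9.30% ± 0.33 in BxPC3 and 8.73% ± 0.14 in SUIT2 (SD, n = 3; exact permutation p = 0.1). Libraries of the same line correlated at 0.9941 to 0.9947 and libraries of different lines at 0.7742 to 0.7789 (Pearson, log scale, across genes). Of the 14011 genes tested, 11007 (78.6%) passed an adjusted p of 0.05 by edgeR's quasi-likelihood test with Benjamini-Hochberg adjustment, 5450 (38.9%) higher and 5557 (39.7%) lower in BxPC3. In 11040 genes (78.8%) the 3 libraries of either line lay above all 3 of the other. Because most genes differed, gene groups are described here also by a stricter call, a test against a change of 2-fold, which 3912 genes (27.9%) passed, 2010 (14.3%) higher and 1902 (13.6%) lower in BxPC3. Counts of genes called in a group are to be read beside these shares. The median difference over all genes tested was -0.01 on the log2 scale, and 127 genes differed by at least 10 on that scale.

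Both lines expressed epithelial markers, in different proportions. All 9 epithelial markers were tested, and 5 were higher and 4 lower in BxPC3. EPCAM, an epithelial adhesion molecule, stood at 150, 144 and 143 CPM (counts scaled by library size) in the 3 BxPC3 libraries and at 219, 205 and 226 in the 3 SUIT2 libraries. Several defining markers of other cell types were not detected. The leukocyte marker PTPRC, the fibroblast marker POSTN, the insulin gene INS, the acinar gene CPA1 and the hepatocyte gene ALB had 0 counts in all 6 libraries. Of 17 acinar markers 3 passed the filter on low counts, of 14 endocrine markers 1, of 10 fibroblast markers 4, of 12 immune markers 3, of 8 endothelial markers 3, and of 10 hepatocyte markers none. Summed over a list, immune markers reached 23.6 to 26.2 CPM in the BxPC3 libraries and 312 to 341 in those of SUIT2, where LYZ, which gut epithelium also makes, stood at 275, 262 and 295. Fibroblast markers summed to 13.8 to 19.1 CPM in BxPC3 and 0.244 to 0.85 in SUIT2, and 3 of the 4 tested were higher in BxPC3. The sums of the acinar, endocrine, endothelial and hepatocyte lists ranged from 0.122 to 10.6 CPM. The part of such markers in the other differences was not tested.

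Keratins of stratified epithelia were higher in BxPC3. Of 22 listed 14 were tested, 11 were higher in BxPC3, 10 of them past 2-fold, and 3 did not pass the test. KRT5, the keratin of basal cell layers, was at 2841, 2814 and 2829 CPM in BxPC3 and at 0.607, 0 and 2.87 in SUIT2. KRT17, a keratin of basal and injured epithelium, was at 2480, 2536 and 2532 CPM against 0.971, 0.488 and 1.88. KRT6A, its companion in wounded skin, was at 1617, 1572 and 1570 CPM against 0.243, 0.61 and 1.77. These are among the most abundant messages of BxPC3 and lie near the limit of detection in SUIT2, with no overlap. KRT13 (606, 630 and 587 CPM against 0.364, 0.122 and 0.552) and KRT14 (19.6, 21.2 and 21.3 CPM against 0 counts in SUIT2, at least 176-fold higher) followed the same order. Such bounds set a group at 0 to 3 counts over its 3 libraries, and bounds and intervals cover counting error only. SUIT2 replicate 3 held the highest value in 41 of the 82 genes that averaged at least 100 CPM in BxPC3 and under 5 in SUIT2, where their summed CPM was 86.34, 89.86 and 109.27 in the 3 libraries, 0.314%, 0.327% and 0.398% of the BxPC3 sum. Without that library the log2 difference moved from 11.16 to 13.10 for KRT5, from 11.09 to 11.71 for KRT17 and from 10.75 to 11.80 for KRT6A, and all 3 still passed the test. The source of these low counts was not tested.

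The keratins of simple epithelia went both ways. KRT7, a ductal keratin, was at 1496, 1565 and 1577 CPM in BxPC3 and at 12.5, 15.1 and 13.1 in SUIT2 (log2 difference 6.83, SE 0.09, edgeR adjusted p = 1.63e-26). KRT19, another ductal keratin, differed far less, at 1516, 1636 and 1559 CPM against 875, 955 and 897. KRT8 and KRT18, the partner keratins of simple epithelia, were lower in BxPC3, with KRT8 at 1317, 1316 and 1297 CPM against 3841, 4030 and 3877 and KRT18 at 1120, 1146 and 1153 CPM against 2075, 2188 and 2071. KRT80 was at 22.9, 24.1 and 23.7 CPM against 253, 267 and 252. So SUIT2 held a KRT8, KRT18 and KRT19 set with little KRT7, and BxPC3 held the simple and the stratified sets together. KRT20, the intestinal keratin, had 0 counts in BxPC3 and 2 in SUIT2 and was not tested.

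Transcription factors of the gut and pancreas split in their turn. Of 30 listed factors 23 were tested, 7 were higher and 13 lower in BxPC3, 5 and 13 past 2-fold. HNF4A, a nuclear receptor of gut and liver epithelium, was at 0.122, 0.452 and 0.114 CPM in BxPC3 and at 121, 125 and 127 in SUIT2. ONECUT2 (0.609, 0.679 and 0.683 CPM against 95.2, 85.2 and 81.5), the orphan receptor NR5A2 (0.974, 1.58 and 1.94 against 82.2, 68.4 and 76.2) and the intestinal factor CDX2 (0.487, 1.47 and 1.02 against 29.3, 32.7 and 32.7) were likewise SUIT2 genes. GATA6, often used to mark the classical state, did not follow them: it was at 51.2, 58.2 and 55.6 CPM in BxPC3 and at 36.2, 37.7 and 41.1 in SUIT2 (log2 difference 0.52, SE 0.07, edgeR adjusted p = 8.70e-10). FOXA2 (19.8, 21 and 17.9 CPM against 0.243, 0.366 and 0.221), FOXA1 (57.2, 58.6 and 56.6 against 13.1, 17.8 and 13.5), FOXQ1 (35.9, 35.3 and 36.1 against 0.607, 0.244 and 0.221) and the goblet cell factor SPDEF (17.3, 19.8 and 16.9 against 0, 0.122 and 0) were higher in BxPC3. The endodermal set was therefore divided between the lines.

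Squamous and mesenchymal factors were split as well. Of 26 listed 22 were tested, 11 were higher and 8 lower in BxPC3, 10 and 6 past 2-fold. TP63, the factor that specifies squamous epithelium, was at 258, 244 and 272 CPM in BxPC3 and at 0.243, 0.488 and 0.552 in SUIT2 (log2 difference 9.17, SE 0.12, edgeR adjusted p = 1.49e-79). SNAI2, a zinc finger factor of both basal and mesenchymal cells, was at 98.2, 96.5 and 100 CPM against 2.55, 1.34 and 2.87. ZEB1, a repressor of epithelial genes, had the opposite order, at 0.73, 1.13 and 0.455 CPM in BxPC3 and 60.1, 52 and 53.3 in SUIT2. RUNX3 was at 0, 0.113 and 0 CPM against 40.3, 47.9 and 40.4, a ratio of 1106 (95% counting interval 198 to 43710). TP73, the relative of TP63, was also lower in BxPC3, at 3.89, 5.09 and 3.07 CPM against 32.1, 33.9 and 35.2.

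**Figure D1:**
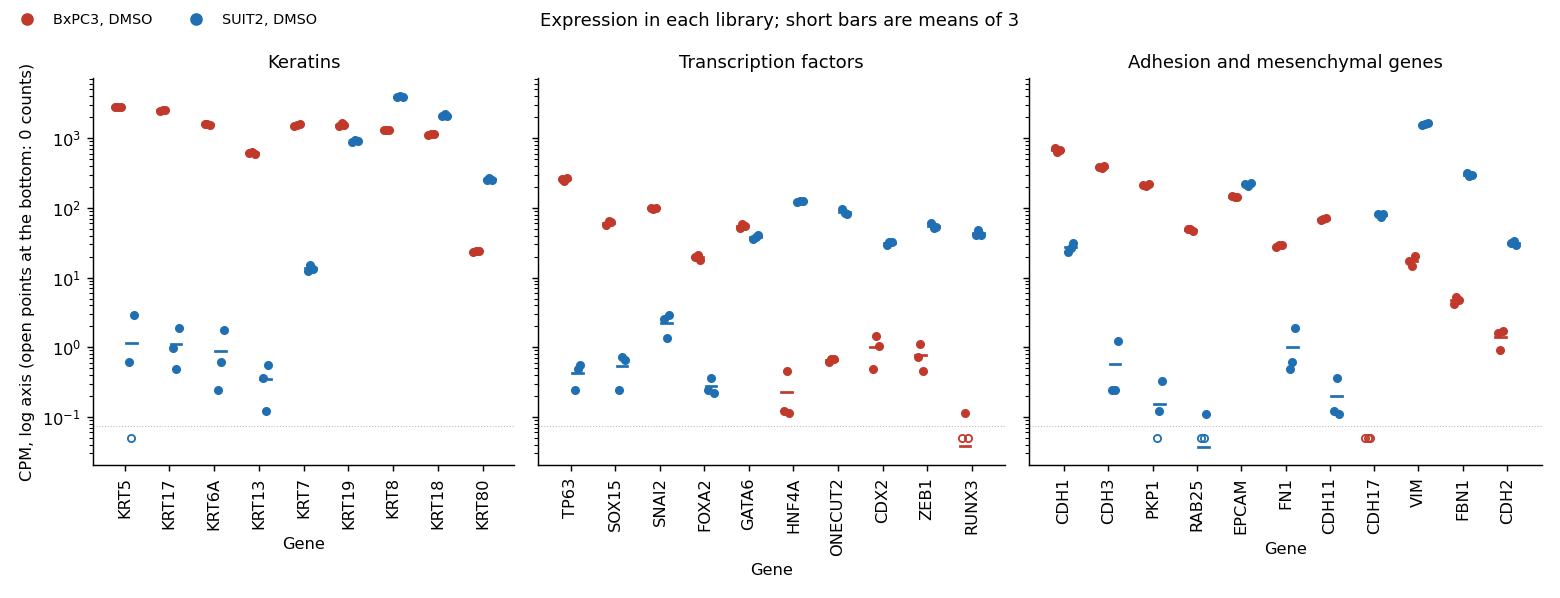
CPM on a log axis in each of the 3 BxPC3 (red) and 3 SUIT2 (blue) DMSO libraries for keratins, transcription factors and adhesion or mesenchymal genes, with a short bar at each mean and open points for libraries with 0 counts. BxPC3 points for KRT5 and TP63 lie far above those of SUIT2, CDH17 is at 0 in BxPC3, and GATA6, KRT19 and EPCAM lie close together.

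Subtype marker lists gave 2 different pictures. Of 25 basal-like markers 23 were tested and all 23 were higher in BxPC3, 20 past 2-fold, with a median log2 difference of 6.83 (5.56 with genes at 0 in SUIT2 set to their bounds). SCEL, a precursor of the cornified envelope, had the highest bound of the genes at 0 in SUIT2, with 172, 142 and 150 CPM against 0 counts, at least 1309-fold higher. SPRR1B, another envelope protein, was at 78.6, 76.9 and 75.4 CPM against 0 counts, at least 653-fold. The calcium-binding protein S100A2 was at 1355, 1323 and 1380 CPM against 26, 30 and 29.6 (log2 difference 5.56, SE 0.05, edgeR adjusted p = 1.44e-89). Of 24 classical markers, by contrast, 16 were tested, 9 were higher in BxPC3 and 7 in SUIT2, all past 2-fold. CEACAM6, a carcinoembryonic antigen family member, was at 494, 409 and 435 CPM in BxPC3 and 6.07, 4.03 and 4.31 in SUIT2, and the secretory protein AGR2 at 138, 122 and 132 against 0.486, 0.366 and 0.773. The gut lysozyme LYZ (0.243, 0.566 and 0.114 CPM against 275, 262 and 295), the galectin LGALS4 (0.852, 0 and 0.228 against 295, 316 and 280) and the cadherin of intestine CDH17 (0 counts against 80.6, 73.5 and 81.6 CPM, at least 678-fold) were SUIT2 genes. Both lines thus held part of the classical list, and different members of it. Panc327, the reference line, had 1320 CPM of KRT5 and 383 of TP63 and under 1 CPM of HNF4A, LYZ, LGALS4 and CDH17.

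Promoter sequence differed between the sets of genes that were at 0 counts in either line and averaged at least 10 CPM in the other. Windows of 250 bases before each transcription start were taken from RefSeq (GRCh38.p14) for genes with 1 listed start, 7366 of the 14011 tested. In all, 6 motifs were searched on both strands, and those shown were chosen after their shares were seen. TGANTCA, the site of AP-1 (FOS and JUN) dimers, was found in 10 of 33 windows (30.3%) of genes at 0 in SUIT2, in 1 of 27 (3.7%) of genes at 0 in BxPC3, and in 315 (4.28%) of all windows. Among genes past 2-fold it was in 9.15% of the windows higher and 3.35% of those lower in BxPC3. GTTAAT, the HNF1 half-site, was in none of the 33, in 4 of the 27 (14.8%), and in 3.07% of all, and the whole site GTTAATNATTAAC was in no window. The other shares for genes at 0 in SUIT2, genes at 0 in BxPC3 and all genes were 12.1%, 7.41% and 5.32% for the TATA box TATAAA, 6.06%, 0% and 2.92% for the GATA site TGATAA, and 93.9%, 88.9% and 92.6% for the short ETS core GGAA. The median ratio of observed to expected CpG was 0.334, 0.73 and 0.83. A match is a string of letters, not an occupied site, and no match says only that these letters are not in the window. Windows of 3 BxPC3 genes with TGANTCA in capitals follow, shown because each gene is near 0 in SUIT2, at chr13:77535456-77535705 (SCEL, plus strand), chr1:153030953-153031202 (SPRR1B, plus strand) and chr18:63887455-63887704 (SERPINB2, plus strand), with the first base of the match at -49, at -141 and -111, and at -102 relative to the start:
SCEL: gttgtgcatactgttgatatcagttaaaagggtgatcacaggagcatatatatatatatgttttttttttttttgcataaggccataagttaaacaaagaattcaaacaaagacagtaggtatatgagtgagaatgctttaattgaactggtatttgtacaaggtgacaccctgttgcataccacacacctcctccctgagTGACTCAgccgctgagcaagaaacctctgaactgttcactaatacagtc
SPRR1B: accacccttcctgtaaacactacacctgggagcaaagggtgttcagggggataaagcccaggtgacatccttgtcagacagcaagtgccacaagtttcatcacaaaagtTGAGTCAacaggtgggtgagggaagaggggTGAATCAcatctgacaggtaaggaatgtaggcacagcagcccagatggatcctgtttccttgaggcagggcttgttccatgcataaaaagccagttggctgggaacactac
SERPINB2: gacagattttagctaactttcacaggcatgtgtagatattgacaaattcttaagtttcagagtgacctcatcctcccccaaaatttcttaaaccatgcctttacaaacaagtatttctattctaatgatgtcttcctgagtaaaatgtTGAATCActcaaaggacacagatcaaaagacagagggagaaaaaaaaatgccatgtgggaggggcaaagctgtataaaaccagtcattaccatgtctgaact
In the next windows, of genes near 0 in BxPC3, capitals mark GTTAAT or, on the other strand, ATTAAC, at chr10:127892942-127893191 (CLRN3, minus strand), chr15:59611533-59611782 (GCNT3, plus strand) and chr11:102530748-102530997 (MMP7, minus strand), with the first base of the match at -34, -46 and -132:
CLRN3: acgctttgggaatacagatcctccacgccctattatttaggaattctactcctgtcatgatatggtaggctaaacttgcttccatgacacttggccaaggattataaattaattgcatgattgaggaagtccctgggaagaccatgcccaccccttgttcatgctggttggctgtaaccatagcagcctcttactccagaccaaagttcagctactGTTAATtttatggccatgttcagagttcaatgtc
GCNT3: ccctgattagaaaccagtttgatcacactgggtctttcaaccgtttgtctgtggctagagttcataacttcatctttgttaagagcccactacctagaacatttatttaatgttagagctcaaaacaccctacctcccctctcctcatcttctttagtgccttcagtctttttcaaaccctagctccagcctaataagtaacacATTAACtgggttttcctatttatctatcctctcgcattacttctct
MMP7: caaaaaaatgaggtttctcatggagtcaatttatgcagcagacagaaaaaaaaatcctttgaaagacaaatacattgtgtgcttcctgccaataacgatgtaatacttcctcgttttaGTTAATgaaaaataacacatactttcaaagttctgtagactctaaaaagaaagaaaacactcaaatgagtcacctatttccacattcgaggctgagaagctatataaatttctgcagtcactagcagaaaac
CLRN3, a membrane protein on the classical list, had 0 counts in BxPC3 and 23.3, 23.9 and 25 CPM in SUIT2. GCNT3, a mucin core glycosyltransferase, was at 0, 0.113 and 0.797 CPM against 39.6, 40.3 and 38.7. The MMP7 window also held TGANTCA and TATAAA matches, and TATAAA was in the SERPINB2 and CLRN3 windows too. SERPINB2, GCNT3 and MMP7 had a few counts in the low line, so they are not in the sets at 0 counts.

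Cell adhesion genes were mostly BxPC3 genes. All 33 genes of epithelial adhesion and polarity were tested, and 27 were higher and 6 lower in BxPC3, 23 and 3 past 2-fold. CDH1, the cadherin of adherens junctions, was at 719, 632 and 684 CPM in BxPC3 and at 23.4, 26.9 and 31.7 in SUIT2 (log2 difference 4.63, SE 0.06, edgeR adjusted p = 1.55e-70). Among desmosomal genes, the plakophilin PKP1 was at 212, 203 and 217 CPM against 0, 0.122 and 0.331 and the desmocollin DSC3 was at 207, 200 and 217 against 0.121, 0 and 0.663. RAB25, a small GTPase of epithelial recycling, was at 49.4, 49.1 and 46.2 CPM against 0, 0 and 0.11, and the membrane protease PRSS8 at 43.8, 41.1 and 41.7 CPM against 0 counts, at least 358-fold higher. The plakophilin PKP2 was lower in BxPC3 (47.2, 47.8 and 49.1 CPM against 131, 126 and 133). Of 12 claudins tested, the proteins that seal tight junctions, 4 were higher, 4 lower and 4 did not pass. CLDN7 was at 120, 123 and 118 CPM in BxPC3 and 6.44, 6.72 and 6.63 in SUIT2, and CLDN2, which forms a leaky pore, at 0, 0 and 0.114 CPM against 169, 161 and 173.

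Mesenchymal genes did not go to SUIT2 as a group. Of 27 tested, 12 were higher in BxPC3, 12 lower and 3 not called, and the median log2 difference was 0.38 (0 with genes at 0 set to their bounds). VIM, the intermediate filament of mesenchymal cells, was at 17.3, 14.8 and 20.5 CPM in BxPC3 and 1535, 1614 and 1661 in SUIT2 (log2 difference -6.51, SE 0.07, edgeR adjusted p = 5.89e-43). The microfibril protein FBN1 (4.14, 5.2 and 4.78 CPM against 318, 285 and 300) and the neural cadherin CDH2 (1.58, 0.905 and 1.71 against 31, 33.7 and 29.1) were SUIT2 genes too. Yet fibronectin, FN1, was at 27, 29 and 29.5 CPM in BxPC3 and 0.486, 0.61 and 1.88 in SUIT2, and the cadherin CDH11 at 67.4, 68.3 and 72.3 against 0.121, 0.366 and 0.11. The actin regulators CALD1 (152, 146 and 150 CPM against 4.13, 5.62 and 6.96) and MSN (1513, 1476 and 1568 against 275, 272 and 270) were higher in BxPC3 as well.

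Matrix genes differed in kind. Of 23 collagens tested 12 were higher and 6 lower in BxPC3, with a median log2 difference of 2.19. The basement membrane chains COL4A5 (237, 230 and 223 CPM against 0.243, 0.122 and 0.221) and COL4A6 (378, 370 and 387 against 0, 0 and 0.552), which lie next to each other on the X chromosome, and the anchoring fibril chain COL7A1 (520, 613 and 532 against 2.31, 3.3 and 1.99) were BxPC3 genes. COL18A1, the source of endostatin, was at 4.02, 5.66 and 3.64 CPM against 136, 148 and 149. Laminin chains showed an exchange: LAMA3, of the laminin that anchors epithelia, was at 582, 526 and 583 CPM in BxPC3 and 12.3, 11.8 and 15.4 in SUIT2. LAMA4 (0.365, 0.566 and 0.228 CPM against 150, 146 and 145) and LAMB2 (0, 0.113 and 0 against 111, 113 and 115), chains of vascular and muscle laminins, were SUIT2 genes. VCAN, a large proteoglycan, was at 0.609, 0.226 and 0.342 CPM in BxPC3 and at 2440, 2110 and 2303 in SUIT2 (log2 difference -12.47, SE 0.10, edgeR adjusted p = 9.14e-87). Of 18 integrins tested 8 were higher, 5 lower and 5 not called, beside 38.9% higher and 39.7% lower of all genes tested. ITGB6, which activates TGF-beta, was at 88.7, 84.3 and 83.6 CPM in BxPC3 and 2.91, 4.15 and 2.76 in SUIT2, whereas ITGB4, the laminin receptor of hemidesmosomes, was at 669, 743 and 705 against 1465, 1587 and 1524.

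Clotting genes and proteases were divided between the lines. Of 20 tested genes of the plasminogen and coagulation systems 10 were higher and 10 lower in BxPC3, beside 38.9% and 39.7% of all genes tested. Past 2-fold were 9 and 7, beside 14.3% and 13.6% of all genes tested. F3, tissue factor, the trigger of coagulation, was at 1982, 1829 and 1963 CPM in BxPC3 and 10.4, 11.1 and 9.94 in SUIT2 (log2 difference 7.52, SE 0.07, edgeR adjusted p = 6.68e-69). SERPINB2, an inhibitor of urokinase, was at 508, 461 and 496 CPM against 0, 0 and 0.221, a ratio of 6217 (95% counting interval 1721 to 51340). THBD, thrombomodulin, was at 327, 326 and 329 CPM against 0.85, 1.59 and 1.22. SERPINE2, an inhibitor of thrombin, had the opposite order, at 69.2, 64.7 and 64.6 CPM against 785, 778 and 810. Of 20 metalloproteinases and inhibitors tested 10 were higher and 6 lower, beside 38.9% and 39.7% of all genes tested. MMP14, the membrane-bound collagenase, was at 900, 948 and 964 CPM in BxPC3 and 39.1, 37.1 and 38.2 in SUIT2, and MMP7, matrilysin, at 1.34, 1.02 and 1.37 against 1364, 1379 and 1459 (log2 difference -10.12, SE 0.09, edgeR adjusted p = 8.81e-92). The matrix protease ADAMTS1 was at 108, 115 and 117 CPM against 0 counts in SUIT2, at least 964-fold higher.

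Interleukin-1 genes were expressed in BxPC3 and near 0 in SUIT2. Of 27 cytokines and chemokines tested 17 were higher in BxPC3 and 5 lower, 14 and 3 past 2-fold. IL1B was at 121, 122 and 121 CPM against 0 counts, at least 1033-fold higher, and IL1A at 128, 122 and 133 CPM against 0, 0 and 0.331. Their natural antagonist IL1RN was at 48.9, 43.9 and 46.2 CPM against 0, 0 and 0.11. IL1RL1, the receptor of interleukin-33, was at 730, 654 and 693 CPM against 0.243, 0 and 0, a ratio of 8811 (95% counting interval 2439 to 72760). The neutrophil chemokine CXCL5 was at 10.1, 10.9 and 12.4 CPM against 0 counts. TNFSF15 (0, 0.339 and 0 CPM against 59.7, 53.8 and 53.1) and the death ligand TNFSF10 (15.1, 13.9 and 13.6 against 71.4, 66.1 and 72.1) were higher in SUIT2. Among 20 tested NF-kB subunits and targets 9 were higher and 6 lower, beside 38.9% and 39.7% of all genes tested. The inhibitor TNFAIP3 was at 106, 107 and 109 CPM in BxPC3 and 6.8, 5.62 and 6.52 in SUIT2. The receptor CD40 was at 0.122, 0.339 and 0.342 CPM against 20.5, 20 and 21.

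Of the 15 genes with the largest differences on the BxPC3 side, those described next are best known from blood cells and were picked out after their values were seen, so no group is tested here. HCLS1, an actin adaptor of haematopoietic cells, was at 152, 147 and 154 CPM against 0 counts in SUIT2, at least 1281-fold higher. LCP1, the leukocyte plastin, was at 722, 700 and 736 CPM against 0, 0 and 0.442, the T cell adaptor FYB at 53.7, 54 and 52.3 CPM against 0 counts, and the ETS factor FLI1 at 63.2, 57.2 and 58.2 CPM against 0 counts. Looked up afterwards, the T cell kinase LCK (24, 23.8 and 27.2 CPM) and the GTPase GIMAP6 (45.6, 42.9 and 45.5 CPM) also had 0 counts in SUIT2. The pan-leukocyte gene PTPRC had 0 counts in all 6 libraries and CD3E had 3 counts in BxPC3 and 0 in SUIT2. The listed immune markers went otherwise, with 1 higher and 2 lower in BxPC3 of 3 tested. In Panc327, HCLS1 stood at 25.4 CPM, LCP1 at 148, and FYB and FLI1 under 1.

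Interferon-stimulated genes were higher in BxPC3 more often than lower, and MHC class II genes the reverse. All 44 interferon-stimulated genes were tested, 31 were higher and 12 lower in BxPC3, 20 and 6 past 2-fold, with a median log2 difference of 0.89. MX2, an antiviral GTPase, was at 70.7, 66.5 and 66.8 CPM against 0.607, 0.244 and 0.11, BST2, which tethers budding viruses, at 135, 144 and 143 against 12.6, 10.3 and 8.18, and the DNA sensor IFI16 at 193, 178 and 186 against 29.3, 25.2 and 30.2. GBP2 (1.83, 2.26 and 2.39 CPM against 58.4, 57.9 and 62.4) and the feedback protease USP18 (2.31, 2.6 and 1.94 against 18.2, 18.2 and 19.6) were lower in BxPC3. Of 16 MHC class II genes 11 were tested, 9 were lower in BxPC3, 8 of them past 2-fold, 1 was higher and 1 not called. HLA-DMB, a peptide-loading chain, had 0 counts in BxPC3 and 65.6, 64.7 and 64.1 CPM in SUIT2, at least 558-fold more, and HLA-DMA, its partner, was at 0.365, 0.113 and 0 CPM against 46.4, 52.9 and 53.7. The classical chain HLA-DRA reached only 4.13, 5.13 and 5.19 CPM in SUIT2, with 0 counts in BxPC3, and the class II master regulator CIITA 0.85, 0.61 and 0.663 CPM, with 0 counts in BxPC3. Class I genes differed little: none of 19 was past 2-fold higher and 2 were past it lower, with HLA-B at 33.2, 31.2 and 30.2 CPM in BxPC3 and 56.7, 56.7 and 57 in SUIT2.

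**Figure D2:**
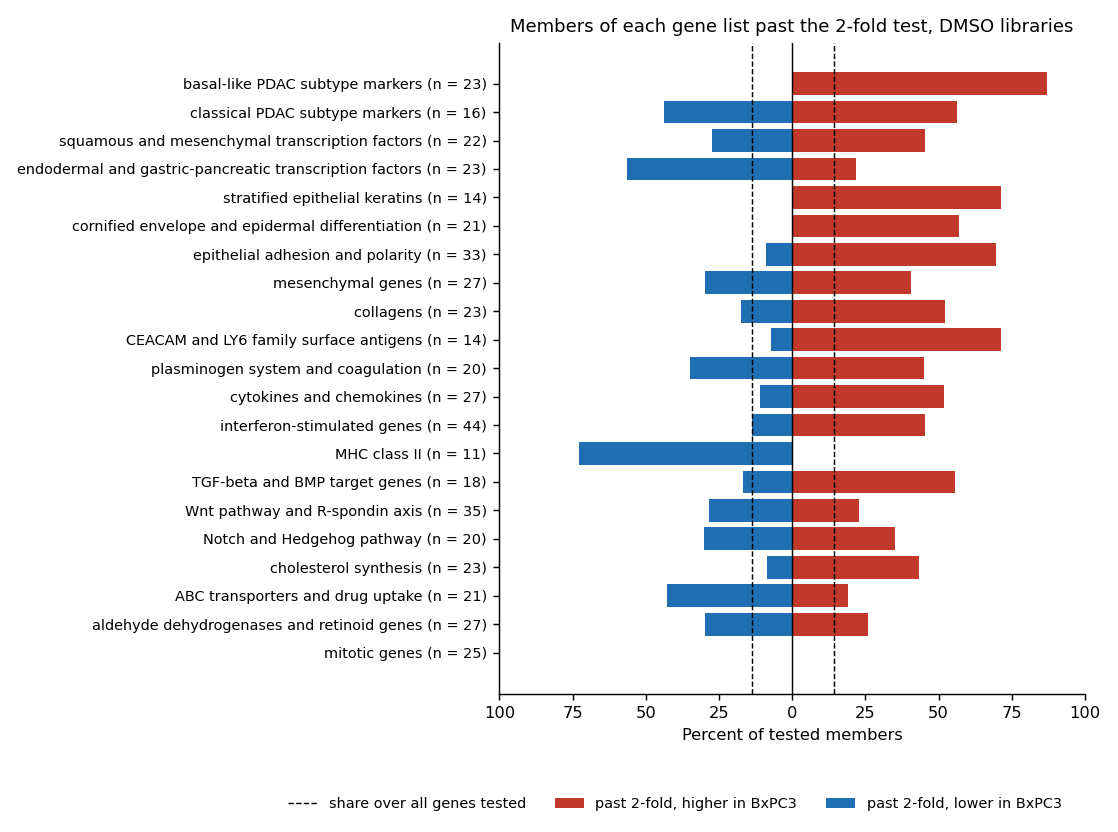
Percent of the tested members of 21 gene lists that passed the test against 2-fold, to the right where higher and to the left where lower in BxPC3, with dashed lines at the shares over all genes tested (14.3% and 13.6%). Bars for basal-like markers and MHC class II reach far past the dashed line on 1 side, classical markers reach past it on both sides, and no mitotic gene passed.

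Growth factor ligands and receptors went both ways. Of 13 ERBB receptors and ligands tested 8 were higher and 3 lower in BxPC3. The ligands NRG1 (67.5, 63.9 and 69.7 CPM against 0.121, 0 and 0), HBEGF (114, 109 and 113 against 3.16, 3.3 and 3.54) and AREG (131, 113 and 121 against 10.7, 9.4 and 9.06) were BxPC3 genes. The ERBB receptors lay closer, with EGFR at 313, 332 and 328 CPM against 206, 196 and 208 (log2 difference 0.67, SE 0.04), ERBB2 at 69, 72.2 and 67.8 against 116, 120 and 124, and ERBB3 at 89.9, 83.6 and 89.7 against 139, 135 and 136. Among other receptor tyrosine kinases, the ephrin receptor EPHA1 was at 96.8, 93.8 and 89.5 CPM in BxPC3 and 0, 0 and 0.221 in SUIT2, and EPHB6 at 104, 116 and 102 against 0.121, 0.122 and 0.221. FGFR4 (1.58, 1.92 and 1.02 CPM against 65.6, 73.1 and 65.7) and the insulin receptor INSR (1.83, 0.792 and 1.14 against 32.4, 28.2 and 28.3) were SUIT2 genes. Of 22 genes that ERK signalling switches on, many of them its own brakes, 9 were higher, 9 lower and 4 not called, near the 38.9% and 39.7% over all genes tested, and 6 and 5 passed 2-fold. Examples are the phosphatases DUSP4 (318, 343 and 348 CPM against 55.4, 54.1 and 56.8) and DUSP6 (171, 161 and 166 against 53.9, 56.5 and 53.9) which were higher in BxPC3, and the factor ETV5 (14, 15.3 and 15.4 against 59.4, 68.4 and 67.4) and the inhibitor SPRY4 (19.2, 18.9 and 20.4 against 53.4, 60.9 and 57.9), which were lower.

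TGF-beta and BMP signalling genes went both ways, and only some of the listed ligands are given here, with BMP2 among those left out. Of 41 pathway components tested 17 were higher and 20 lower in BxPC3, beside 38.9% and 39.7% of all genes tested, and 10 and 9 passed 2-fold. FST, which binds activins, was at 416, 398 and 425 CPM in BxPC3 and 0.243, 0.122 and 0.221 in SUIT2, and the activin chain INHBA at 17, 16.2 and 17.2 CPM against 0 counts. BMP4 (4.26, 3.05 and 2.51 CPM against 294, 323 and 307) and BMP7 (0.609, 0.339 and 0.228 against 203, 224 and 226) were SUIT2 genes. The receptor TGFBR2 was at 156, 149 and 160 CPM against 411, 389 and 408. SMAD4, the common mediator of both branches (chromosome 18 from 51028394 to 51085045), had 0 counts in all 6 libraries, and stood at 41.5 CPM in Panc327. Of 18 target genes tested, 13 were higher in BxPC3 and 5 lower, with the BMP feedback gene SMAD6 at 4.99, 4.07 and 4.9 CPM against 21.9, 23.1 and 22.9.

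Wnt genes were lower in BxPC3 more often than higher (22 and 11 of 35 tested, 10 and 8 past 2-fold). LGR5, a receptor of R-spondins and a stem cell marker, had 0 counts in BxPC3 and 56.7, 51.5 and 51 CPM in SUIT2, at least 457-fold more, and AXIN2, a feedback gene of the pathway, was at 0, 0 and 0.114 CPM against 10.4, 11 and 11. The transcription factor TCF7 was at 2.8, 3.39 and 2.28 CPM against 42.5, 40.3 and 41, while the ligand WNT10A was at 20.8, 24.8 and 21.9 CPM in BxPC3 and 0, 0.122 and 0.221 in SUIT2. Notch ligands were BxPC3 genes, with JAG1 at 552, 544 and 571 CPM against 29, 28.9 and 31, JAG2 at 154, 184 and 164 against 3.04, 5.01 and 3.98, and DLL1 at 30.3, 35.6 and 31.5 against 1.58, 0.855 and 2.43. SMO, the transducer of Hedgehog signals, had 0 counts in BxPC3 and 36.9, 39.4 and 39.1 CPM in SUIT2. Of 24 genes of the YAP and TEAD pathway 15 were higher and 7 lower in BxPC3, with the LIM protein AJUBA at 407, 412 and 405 CPM against 40.9, 46 and 49.3 and the matricellular target CTGF at 4.99, 4.75 and 3.99 against 20.4, 20.5 and 23.

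Metabolic genes added a further contrast. All 23 cholesterol synthesis genes were tested, 17 were higher and 3 lower in BxPC3, 10 and 2 past 2-fold. HMGCS1, a synthase early in the pathway, was at 255, 234 and 233 CPM in BxPC3 and 27.9, 31.4 and 28.3 in SUIT2. Glycolysis and lactate transport genes went both ways, with 14 higher and 8 lower in BxPC3 of 23 tested. Past 2-fold were 4 and 3, near the 14.3% and 13.6% of all genes tested. The lactate exporter SLC16A3 was at 159, 184 and 180 CPM in BxPC3 and 4.61, 5.98 and 7.29 in SUIT2, while lactate dehydrogenase LDHA was at 691, 650 and 686 against 1505, 1445 and 1510. Aldehyde dehydrogenases and retinoid genes were also divided, with 13 higher and 10 lower in BxPC3 of 27 tested, 7 and 8 past 2-fold. ALDH2, which clears acetaldehyde, was at 5.6, 4.98 and 6.26 CPM against 308, 318 and 324, and the retinol dehydrogenase DHRS9 at 353, 314 and 336 CPM against 0.607, 0.61 and 0.773. Of 21 drug transporters and uptake genes tested 6 were higher and 13 lower in BxPC3. ABCB1, the drug efflux pump P-glycoprotein, had 0 counts in BxPC3 and 84.2, 88.8 and 90.5 CPM in SUIT2, at least 757-fold more, and the efflux pump ABCC2 was at 2.43, 3.62 and 3.42 CPM against 99.6, 93.8 and 105. CDA, which inactivates gemcitabine, was at 29.2, 32 and 34.5 CPM in BxPC3 and 4.98, 5.25 and 6.85 in SUIT2. Ion channels and transporters of ductal epithelium were divided, with 8 higher and 7 lower in BxPC3 of 16 tested, 4 and 5 past 2-fold. CFTR, the chloride channel of ducts, had the highest bound of the genes at 0 in BxPC3, with 0 counts in BxPC3 and 253, 241 and 252 CPM in SUIT2, at least 2144-fold more, whereas the calcium-activated chloride channel ANO1 was at 691, 645 and 676 CPM in BxPC3 and 5.34, 6.35 and 5.75 in SUIT2.

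Cell division genes differed little in size. Of 25 mitotic genes 3 were higher and 17 lower in BxPC3, none past 2-fold, with a median log2 difference of -0.39. Among positional patterning genes, only the HOXA group had members higher in BxPC3. Of 12 HOXA genes tested 3 were higher and 4 lower in BxPC3, of 4 HOXD genes none was called, of 6 HOXB genes none was higher and 4 lower, and of 8 HOXC genes none was higher and 6 lower, with HOXC8 at a mean of 0.921 CPM against 7.26. Cancer-testis antigens went mostly to BxPC3 (9 higher and 2 lower of 13 tested). MAGEA1 was at 90.8, 87 and 92 CPM against 0 counts in SUIT2, at least 763-fold higher, and MAGEA3 at 115, 104 and 112 against 0, 0 and 0.11, although MAGEA3 and MAGEA6 are near-identical copies whose reads the counting could divide wrongly. PRAME was at 0 counts in BxPC3 and 17, 17.9 and 18.7 CPM in SUIT2.

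Some genes had no count at all in 1 line and were expressed in the other. In 66 genes that averaged at least 10 CPM in BxPC3, SUIT2 had 0 counts in all 3 libraries, so the lowest bound on the difference was 88.7-fold and the highest 1309-fold. In 53 genes the reverse held, with bounds of 89.9 to 2144. The THZ1 libraries, which played no part in choosing these genes, gave 0 counts in the same line again for 32 of the 66 and 25 of the 53, and at most 8 and 6 counts over 3 libraries for the others. Panc327 had at least 10 CPM of 22 of the 66 and under 1 CPM of 24, and at least 10 CPM of 15 of the 53 and under 1 CPM of 29. Of the tumour suppressors, KDM6A, a histone demethylase on the X chromosome from 44873177 to 45112602, belonged to the first set, with 30.9, 32.3 and 30.4 CPM in BxPC3 and 0 counts in SUIT2, at least 265-fold more. CDKN2A, a brake on the cell cycle, belonged to the second, with 0 counts in BxPC3 and 9.47, 10.7 and 11.3 CPM in SUIT2. Its mean in Panc327 was 0.036 CPM.

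Genes near 0 lay next to each other in some places. A run was taken as at least 4 consecutive genes under 0.5 CPM in a line, counting along the chromosome only genes with at least 5 CPM in any of the 3 DMSO groups, and coordinates are those of GENCODE 29 (GRCh38). Around CDKN2A on chromosome 9, from 21329671 to 22455740, the 5 genes KLHL9, MIR31HG, MTAP, CDKN2A and DMRTA1 had 4 counts in BxPC3 and 11146 in SUIT2. MTAP, a methionine salvage enzyme often lost with CDKN2A, was at 0.243, 0.113 and 0.114 CPM against 377, 344 and 362. In Panc327 CDKN2A was near 0 too, at a mean of 0.036 CPM, while MTAP was at 66.9. The genes on each side, FOCAD (32.9 CPM in BxPC3 and 44.8 in SUIT2) and TUSC1 (13.5 and 9.66), were expressed in both. Around SMAD4, from 50878734 to 51218304 on chromosome 18, the 4 genes ME2, ELAC1, SMAD4 and MEX3C had 1 count in BxPC3 and 1848 in SUIT2, none of them from SMAD4, while SKA1 (25.2 and 16.2 CPM) and MBD2 (86.1 and 46.5 CPM) on each side were expressed. In SUIT2 the run was limited to SMAD4 itself, with ME2 at 42.1, 44.8 and 43.2 CPM and ELAC1 at 2.91, 5.25 and 5.52.

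The remaining BxPC3 runs of this kind lay on chromosomes 10 and 21. On chromosome 10, from 71747559 to 72235860, the 6 genes C10orf54, PSAP, CHST3, SPOCK2, ASCC1 and ANAPC16 had 10 counts in BxPC3 and 23272 in SUIT2. Of the SUIT2 counts 18341 came from PSAP and only 12 from SPOCK2, which was under 0.5 CPM in both lines. PSAP, the precursor of the lysosomal saposins, was at 0.243, 0.226 and 0.114 CPM in BxPC3, 683, 726 and 747 in SUIT2 and 865 on average in Panc327. On chromosome 21, from 41739369 to 42297244, the 5 genes RIPK4, PRDM15, C2CD2, ZBTB21 and ABCG1 had 4 counts against 4290. RIPK4, a kinase of keratinocyte differentiation, had 0 counts in BxPC3 and a mean of 37.5 CPM in SUIT2 and 57.3 in Panc327. C10orf54, which codes for an immune checkpoint receptor, was at 0.0406 CPM against 69.7. Whether these stretches are deleted, silenced or uncounted in BxPC3 was not tested, since the files hold no DNA measurement.

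**Figure D3:**
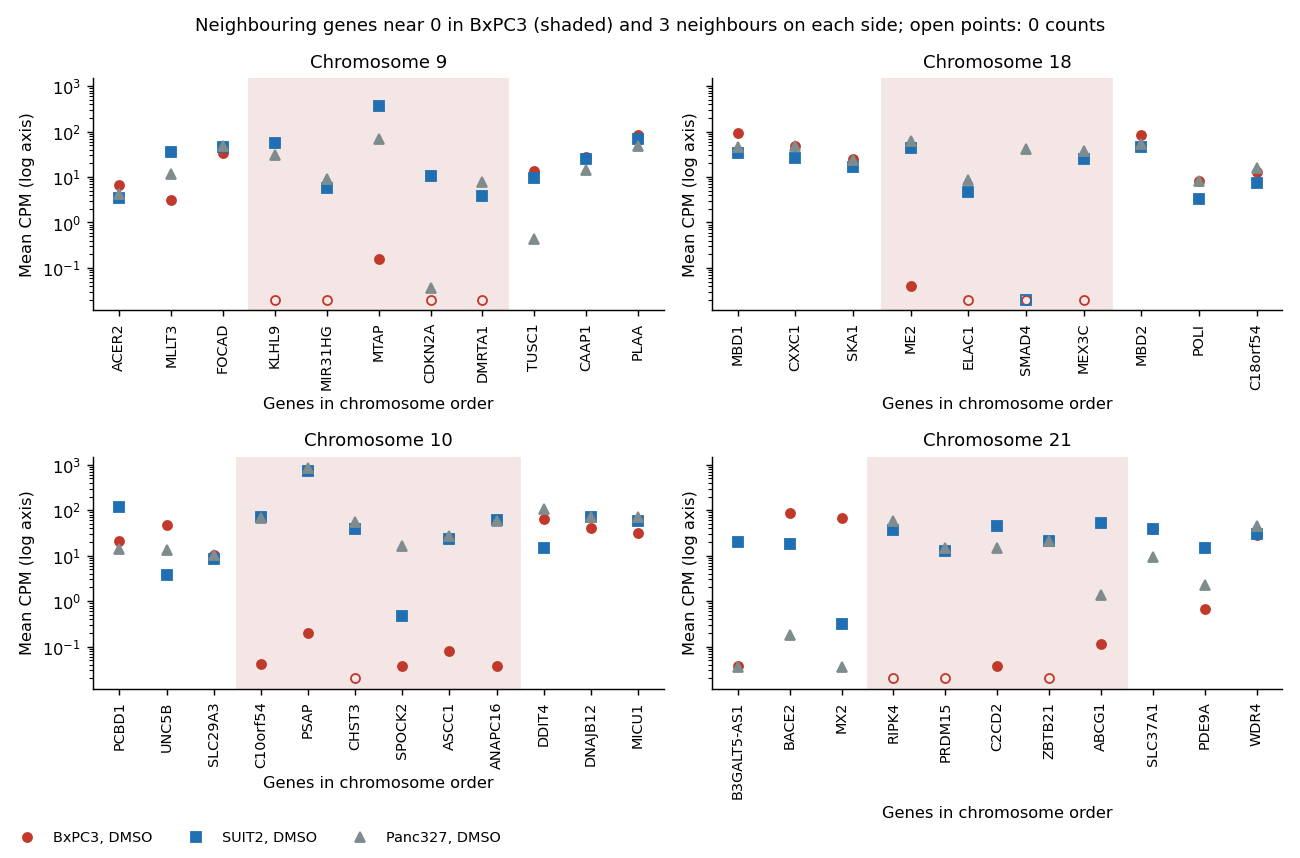
Mean CPM on a log axis of neighbouring genes in chromosome order in BxPC3 (red circles), SUIT2 (blue squares) and Panc327 (grey triangles) with DMSO, for 4 places where at least 4 genes in a row are near 0 in BxPC3 (shaded), with 3 neighbours on each side and open points at 0 counts. Inside the shading BxPC3 stays under 0.5 CPM while MTAP, PSAP and RIPK4 are high in both other lines, and FOCAD, SKA1, DNAJB12 and WDR4 outside it are expressed in all 3. CDKN2A is near 0 in Panc327 as well.

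In SUIT2 the runs fell in clusters of related genes. On chromosome 18, from 63586989 to 63903890, the serpins SERPINB13, SERPINB3, SERPINB7 and SERPINB2 had 2 counts in SUIT2 and 14350 in BxPC3, next to SERPINB5, a serpin at 390 CPM in BxPC3 and 109 in SUIT2. On chromosome 2, from 112773915 to 113134016, IL1A, IL1B, IL36RN and IL1RN had 4 counts against 7652. Only 13 of the BxPC3 counts came from IL36RN, which was at a mean of 0.505 CPM there. A stretch of the X chromosome from 152166234 to 152769747, with GABRA3, MAGEA3, CSAG1, MAGEA12 and MAGEA6, had 10 counts against 5926 and was under 1 CPM in Panc327 too. The kallikrein cluster on chromosome 19 was near 0 in both lines from KLK5 to KLK9, with 20 counts in BxPC3 and 7 in SUIT2 against means of 19.4 to 404 CPM in Panc327, and KLK10 (115, 101 and 99.9 CPM) and KLK11 (31.3, 31.6 and 31.4 CPM) next to them were expressed in BxPC3 and at 0.243, 0.488 and 0.331 CPM and 0 counts in SUIT2.

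Over windows of 15 tested genes, 13407 in all, the middle 90% had a median log2 difference between -0.77 and 0.90. The lowest was on chromosome 21 from PSMG1 to ABCG1, at -4.84, followed by the stretch of chromosome 10 that ends at ANAPC16, at -3.14, and the MHC class II region of chromosome 6 from AGER to HLA-DPB1, at -2.10. The highest was the S100 and cornified envelope cluster of chromosome 1 from S100A11 to S100A14, at 5.56, followed by chromosome 20 from MCM8 to TASP1, at 2.61, which includes JAG1 and BMP2, and the type II keratin cluster of chromosome 12 from KRT80 to IGFBP6, at 2.54. These values depend on the window, since with 25 genes the values set beside these windows ranged only from -1.29 to 2.01. That is not the range over all windows of 25 genes. Whole chromosomes differed more mildly. Chromosome 14 had the highest median, 0.64 over 439 genes, of which 72.2% were higher and 14.4% lower in BxPC3, and chromosome 22 the lowest, -0.49 over 337 genes, of which 20.8% were higher and 58.8% lower. Whether DNA copy number moves with these values was not tested.

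Of the genes tied to the study's drug and title, the kinases, SIRT6 and ATF4 differed by less than 2-fold in the vehicle state. CDK7, the target of THZ1, was at 32.1, 29.6 and 30.9 CPM in BxPC3 and 38.4, 33.8 and 35.4 in SUIT2 (log2 difference -0.22, SE 0.08, edgeR adjusted p = 0.0128), and the call was lost by DESeq2 (adjusted p = 0.0675) and without BxPC3 replicate 2 or SUIT2 replicate 1 (adjusted p = 0.0544 and 0.0856). CDK12, a related kinase, was at 102, 97.2 and 101 CPM against 159, 152 and 149, and CDK13 at 76.6, 73.1 and 81.2 against 59.7, 61.4 and 58.3. SIRT6, a chromatin deacetylase, was at 15, 13.1 and 13.4 CPM against 14.9, 14.8 and 19.4, with overlapping groups (log2 difference -0.25, SE 0.12, edgeR adjusted p = 0.0446). That call did not hold by DESeq2 (adjusted p = 0.18) or limma voom (0.0586), with RLE scaling (0.0561), without the filter (0.0512), or in fits of only the 6 or 9 DMSO libraries (0.075 and 0.0667). It was also lost without BxPC3 replicate 2 or 3 (adjusted p = 0.128 and 0.107) or SUIT2 replicate 3 (log2 difference -0.11, adjusted p = 0.462). ATF4, the transcription factor of the integrated stress response, was at 236, 225 and 225 CPM against 235, 242 and 245 (log2 difference -0.07, SE 0.04, adjusted p = 0.102). Its partner DDIT3 was at 8.88, 8.37 and 7.97 CPM in BxPC3 and 37, 38.5 and 39.1 in SUIT2 (log2 difference -2.18, SE 0.11, adjusted p = 1.81e-34). Among driver genes, 12 were higher and 15 lower of 32 tested, beside 38.9% and 39.7% of all genes tested. Past 2-fold were 3 and 5, beside 14.3% and 13.6% of all genes tested. The chromatin remodeller ARID1A was at 174, 183 and 188 CPM against 56.5, 53.8 and 50.7, and the stress kinase kinase MAP2K4 at 1.83, 1.7 and 1.71 against 31.1, 29.3 and 30.1.

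The same comparison of lines could be made a second time in the THZ1 libraries, which share no library with the DMSO comparison. There 11486 of the 14011 genes (82%) passed the test with the main scaling (TMM), 5475 higher and 6011 lower in BxPC3. That split depended on the scaling. With scaling by library size alone, far fewer genes were called higher than lower in BxPC3 with THZ1. Of the 3912 genes past 2-fold with DMSO, 3733 were called in the same direction with THZ1, 23 in the opposite direction and 156 not called. With the main scaling (TMM), the difference between lines changed with treatment in 7694 genes (54.9%), and in 1456 of the 3912. The share of alignments placed more than once was 21.9% to 23.4% in the BxPC3 THZ1 libraries and 12% to 13.8% in those of SUIT2, and its part in this was not tested. IL1B, IL1RL1, CFTR, VCAN and PSAP, which are among the 15 genes per direction with the largest DMSO difference, had a line difference that changed. They were picked by that DMSO difference, which the test of the change uses again. EGFR was at 324 ± 10.2 CPM with DMSO and 106 ± 8.68 with THZ1 in BxPC3 and at 204 ± 6.35 and 199 ± 3.45 in SUIT2 (SD, n = 3), so that the order of the lines turned (difference of log2 differences -1.58, SE 0.07, edgeR adjusted p = 4.97e-37). GATA6 was at 55.0 ± 3.54 CPM with DMSO and 44.6 ± 2.85 with THZ1 in BxPC3, and at 38.3 ± 2.51 and 39.99 ± 2.06 in SUIT2 (SD, n = 3).

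**Figure D4:**
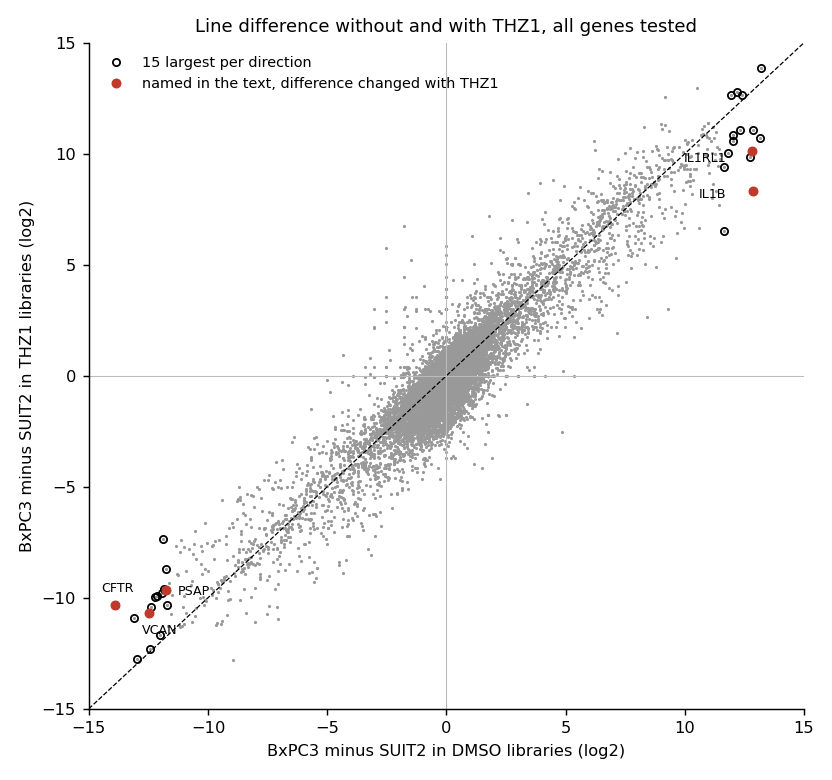
Difference between BxPC3 and SUIT2 (log2, above 0 where BxPC3 is higher) for the 14011 genes tested, with DMSO on the horizontal and with THZ1 on the vertical axis, and a dashed line where both are equal. Open circles mark the 15 genes per direction with the largest DMSO difference and filled ones those named here whose difference changed with THZ1, IL1B, IL1RL1, CFTR, VCAN and PSAP, all of which stay on their side of 0.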

How the data were processed

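The study sequenced polyA RNA in 18 libraries, 3 for each of the lines BxPC3, Panc327 and SUIT2 after 6 h in DMSO or in 100 nM THZ1. The authors deposited whole-number counts per gene symbol for each library. The submitters' processing notes name bcl2fastq 1.8.4, TopHat2 2.1.0, HTSeq 0.6.1 and the build hg38, and which annotation, strand setting and overlap mode HTSeq was run with is not given in the sources used here, so overlapping and antisense genes cannot be told apart and near-identical copies are uncertain. The 5 HTSeq summary rows per file, 22.6% to 24.2% of the alignments of the 6 DMSO libraries compared, were left out.

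The counts were fitted with edgeR 4.0.16 (R 4.3.3; TMM normalization, quasi-likelihood test, 1 model over all 18 libraries with a term per group, 12 residual degrees of freedom) after a filter on low counts (filterByExpr, minimum count 10, total 15), and p-values were adjusted over all genes tested by the Benjamini-Hochberg method at 0.05. CPM were computed with the TMM-scaled library sizes, log2 differences are BxPC3 minus SUIT2, and their SEs are approximate, derived from the F statistic. The scripts were tested on simulated data. Alternatives were DESeq2 1.42.0, limma 3.58.1 (voom), other scalings, no filter, fits of only the 6 or 9 DMSO libraries, a 2-fold threshold, a replicate block and leaving out each library. Same-numbered libraries of the lines did not deviate together (r = 0.043, 0.049 and 0.007), so the numbers were not taken as pairs.

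Genes are named where they are among the 15 per direction with the largest called difference (at least 10 CPM in a line, no overlap of libraries), among up to 5 per direction of a gene list, in a list of at most 15 members, in a window or run of neighbours, or in a short set of pancreatic cancer and transcription genes. The members and lists were chosen with earlier results of these data known. LCK, GIMAP6, CD3E and a few other genes set beside these were chosen after their values were seen. Gene positions are from GENCODE 29, matched for 23899 symbols by name and for 25 by older symbol and for 663 by RefSeq synonym, and promoter windows from RefSeq (GRCh38.p14). Y-linked genes and XIST were not named. Some genes that meet this rule are not reported here.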

Additional observations from a re-analysis of the deposited data

Results flagged for a closer look

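For 5 of the genes with the largest differences with DMSO, the difference between the lines was not the same with THZ1 by edgeR's test of the change itself. The change is given on the log2 scale as the line difference with THZ1 minus that with DMSO. Since each gene has at most 24 counts in the low line, the size of the change depends on a few counts there. The 5 genes were picked by their DMSO difference, and the same DMSO values enter the test of the change. Such a choice favours low DMSO counts in the low line and so a smaller difference with THZ1, the direction of all 5 changes. IL1B changed by -4.53 (adjusted p = 0.0292), with BxPC3 at 122 CPM with DMSO and 30.7 with THZ1 and SUIT2 at 0 and 2 counts. IL1RL1 changed by -2.72 (adjusted p = 0.00676), with BxPC3 at 693 and 461 CPM and SUIT2 at 2 and 10 counts.

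For the 3 genes higher in SUIT2, counts in BxPC3 were more numerous with THZ1. CFTR changed by 3.56 (adjusted p = 0.0482), with SUIT2 at 249 and 244 CPM and BxPC3 at 0 and 3 counts. VCAN changed by 1.8 (adjusted p = 0.00107), with SUIT2 at 2284 and 2279 CPM and BxPC3 at 10 and 24 counts. PSAP changed by 2.09 (adjusted p = 0.00231), with SUIT2 at 719 and 803 CPM and BxPC3 at 5 and 17 counts. The call was lost for IL1B with any 1 of the 3 SUIT2 DMSO libraries left out (adjusted p = 0.0507 to 0.057), and for CFTR with a replicate block (0.0508), by library size alone (0.0747), without the filter (0.0508) and with any 1 BxPC3 DMSO library left out (0.0852 to 0.093) or with SUIT2 replicate 1 or 3 left out (0.0511 and 0.0536).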

How the results depend on the processing

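Testing against 2-fold cut the genes called from 11007 to 3912 with DMSO (2010 higher, 1902 lower in BxPC3) and from 11486 to 5189 with THZ1 (2432 and 2757). Leaving out 1 DMSO library gave 10700 to 10829 genes called with DMSO (5277 to 5334 higher, 5423 to 5495 lower) and 11551 to 11608 with THZ1 (5509 to 5547 and 6038 to 6061), and 65 to 94 genes at 0 in SUIT2 and 54 to 69 at 0 in BxPC3. The replicate block gave 10980 calls with DMSO (5438 and 5542) and 11457 with THZ1 (5463 and 5994) and changed the call of none of 590 named genes in the DMSO comparison. With windows of 10 genes the lowest 2 medians were -8.55 and -6.95 and the highest 3 were 6.77, 3.41 and 6.28, and with windows of 25 genes they were -1.08, -1.29 and -0.62, and 0.44, 2.01 and 0.95. None of the named genes reversed under the alternatives that covered it (561 genes in the fit of the 6 DMSO libraries, 589 in that of the 9, 590 in the others), and DESeq2 lost 8 calls. With 1 library left out, the fitted fold on the linear scale moved by over 1.5 times in 86 of the 590. All 86 were under 5 CPM in a line, and 43 of them moved without SUIT2 replicate 3. Depth limits such genes, which are given as CPM, bounds or ratios. The call of CDK7 depended on the tool and on single libraries, and that of SIRT6 also on the scaling, the filter and the libraries fitted. With DMSO, scaling by library size moved the median of all genes to -0.05 and the share of calls higher in BxPC3 from 49.5% to 46.9%. With THZ1 the same scaling moved the split of calls much more, to far fewer higher than lower in BxPC3.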
